A study of Caenorhabditis elegans with 27 samples.

Results

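The nematode strain CA1200 was sampled here as 2 replicate series of larvae, each with 1 library at 0, 30 and 120 min of auxin. Replicate 1 (series 1) was set against replicate 2 (series 2) at matched times. These are 6 of the 27 libraries analysed, 3 in each series, chosen by strain, replicate number and time alone. A seventh CA1200 library, at 60 min, has no partner in series 2 and was left out. Poly(A) RNA of whole worms was sequenced as stranded libraries. Per the labels, all worms of both series were at stage L2/L3, grown for 24 hours at 22 °C after starved first-stage larvae had been fed. The labelled treatment was 1 mM indole-3-acetic acid, the plant hormone auxin, on agar plates, and 1 library of each series is labelled as 0 min of it. The labels give CA1200 no genotype beyond its name. It is known as a strain in which the eft-3 promoter drives the plant F-box protein TIR1 in somatic cells, with no degron-tagged protein to destroy. AM05, used once for comparison with 6 libraries at the same times, is labelled top-1::degron::GFP, so that auxin removes topoisomerase I in it. The study compared depletion of topoisomerases with such controls, and the series difference bears on how alike 2 series of control larvae were. When the 0 min libraries were taken, relative to the others, is not said in the labels.

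Larvae of Caenorhabditis elegans replace their collagen cuticle at each molt. In every larval stage the epidermis runs through the same order of gene expression: precuticle matrix genes and furrow collagens come before the collagens that shape the new cuticle and before many of the other collagens, and a network of transcription regulators that includes NHR-23 and LIN-42 oscillates with the cycle. Many transcripts therefore peak and decline within hours, and synchronised cultures may differ in where they stand in the cycle.

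The files gave between 17.3 and 21.3 M fragments per CA1200 library, as estimated from the smallest steps in FPKM. Between 10742 and 11688 genes had at least 1 TPM, a transcript abundance corrected for gene length and library size. The library of series 1 at 30 min stood apart, with the lowest median TPM of the 6, 1.37, and a scale factor of 0.748, against 0.977 and 0.946 in the other two of series 1 and 1.02 to 1.24 in series 2. Levels below are scaled TPM. Differences are log2(scaled TPM + 1) of series 1 minus series 2, so a positive value means higher in series 1. They are given ± standard error from limma with time as a block. A gene is called at a Benjamini-Hochberg adjusted p under 0.05 over all 11874 genes tested. The labels do not say whether a replicate number marks 1 culture. The p-values therefore measure how steady a difference was over the 3 times, between these 2 series, and not how much independent cultures vary. For a single gene, exchanging the series within times gives 8 arrangements, so an exact two-sided test cannot go below p = 0.25.

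Both series carried larval rather than adult transcripts. The 6 yolk protein genes summed to between 0.1 and 0.5 scaled TPM in the 6 libraries, and the 3 adult cuticle collagens to between 0.1 and 1.0. The 76 sperm genes summed to 22.7, 24.2 and 23.4 in series 1 and 26.3, 26.8 and 27.1 in series 2. No yolk or adult collagen gene passed the filter on low values. Epidermal, muscle, gut and neuron markers were present in all 6 libraries.

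Of the 11874 genes, 768 were higher in series 1 (6.47% of those tested) and 332 were lower (2.8%), 1100 in all (9.26%). At an unadjusted p under 0.05 there were 3957. All 1100 kept 1 sign at 0, 30 and 120 min. Across genes, the difference at 0 min had a correlation of 0.55 with that at 30 min and 0.40 with that at 120 min, and those at 30 and 120 min one of 0.73, given as a description since all genes share the libraries. Over all genes tested, called or not, 668 were more than 2-fold higher in series 1 and 104 more than 2-fold lower. In 1762 genes (14.8%) every library of series 1 lay above every library of series 2, and in 1962 genes (16.5%) every one lay below. The calls rest on the pair of libraries at 30 min: without either of them limma called 0 genes, with 2113 and 2070 at an unadjusted p under 0.05. Without the 0 min library of series 1 there were 2961 calls, 1834 higher and 1127 lower of 11788 genes. Without that of series 2 there were 2673, 1682 higher and 991 lower of 11784. Without the 120 min library of series 1 there were 1475, 1080 higher and 395 lower of 11750. Without that of series 2 there were 1369, 1006 higher and 363 lower of 11671. Counts of list members called without a library, given below, are to be read beside these. The split between directions depends on the scaling, which moves the median of all genes. That median was 0.01 as scaled here, and with TPM as deposited it was -0.31, with 426 genes higher and 1043 lower. With quantile normalization it was -0.06, with 432 higher and 338 lower.

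Precuticle matrix genes were lower in series 1. They encode the transient apical matrix that covers the epidermis while a new cuticle is built below it. Of 9 such genes, all tested, 8 were lower, none was higher, and the median difference was -1.20, beside 0.01 over all genes. The difference widened over the 3 times, with medians of -0.65, -1.32 and -1.63 at 0, 30 and 120 min. It held under every scaling tried, with 8 genes called in TPM as deposited and 7 after quantile normalization. With the longest 10% of genes left out, which removes 1 member, 5 were called. Without either 120 min library 5 were called lower, and without either 0 min library all 9 were.

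fbn-1, a fibrillin-like matrix gene on chromosome III at 7625310 to 7641010 in the files' coordinates, had 24.9, 5.44 and 4.86 scaled TPM at 0, 30 and 120 min in series 1. In series 2 it had 56.8, 26.7 and 18.1. The series overlapped only through the 0 min library of series 1, which lay above the 120 min library of series 2. The difference was -1.66 ± 0.21 (adjusted p = 0.0188). let-653, a secreted zona pellucida domain protein of the precuticle on chromosome IV at 11885506 to 11891057, had 26.8, 10.5 and 7.96 in series 1, against 61.2, 44.1 and 27.8 in series 2. Every library of series 1 was below every library of series 2, and at 0 min series 1 stood where series 2 stood at 120 min. Its difference was -1.61 ± 0.20 (adjusted p = 0.0177). noah-1, another zona pellucida domain protein, had 175, 79.4 and 57.6 in series 1 and 274, 227 and 181 in series 2 (-1.26 ± 0.24, adjusted p = 0.0376). Again the value of series 1 at 0 min was close to that of series 2 at 120 min.

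The lipocalin lpr-3 had 277, 175 and 84.5 scaled TPM in series 1, against 415, 438 and 280 in series 2. Its difference was -1.20 ± 0.26 (adjusted p = 0.0434), without overlap. The matrix proteins with leucine-rich repeats sym-1 and let-4 were lower in series 1 by similar amounts, with differences of -1.59 ± 0.22 and -1.14 ± 0.18. noah-2 (-1.10) and egg-6 (-0.80) were also called. The only member not called was lpr-1, at -0.46 (adjusted p = 0.174). These last 3 genes are named after their values were seen. dpy-6, a mucin-like cuticle protein outside the list, had 17.1, 5.39 and 6.45 in series 1 and 45.7, 30.8 and 22.6 in series 2, a difference of -1.78 ± 0.21 (adjusted p = 0.0175). fbn-1, sym-1, let-4 and dpy-6 each overlap another gene in the files' coordinates, and the sources used here do not say how the authors divided reads between overlapping genes.

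**Figure D1:**
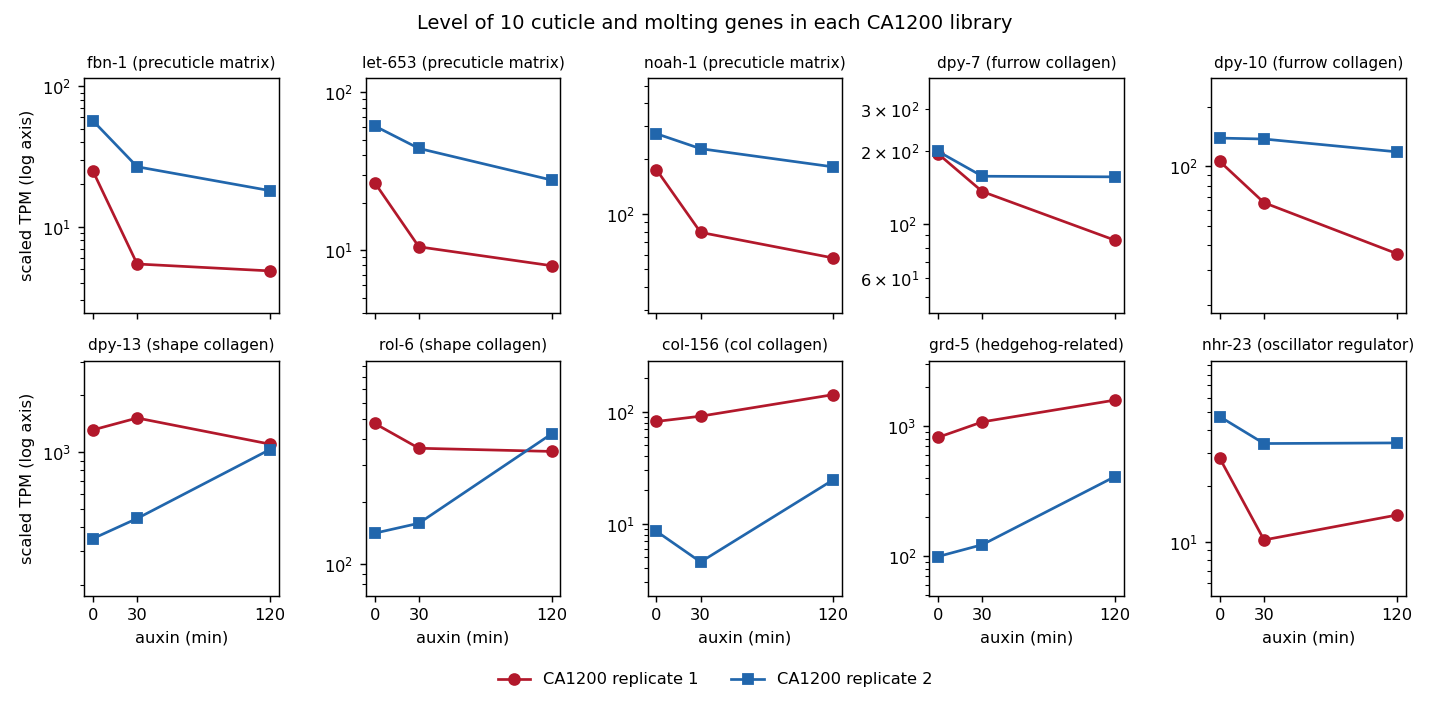
Scaled TPM (log axis) of 10 cuticle and molting genes against minutes of auxin, 1 point per library, with CA1200 replicate 1 as red circles and replicate 2 as blue squares. The precuticle genes lie lower in replicate 1 at all 3 times, col-156 and grd-5 lie higher, and dpy-13 and rol-6 lie higher in replicate 1 at 0 and 30 min, with dpy-13 close together and rol-6 in the opposite order at 120 min.

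Furrow collagens form the circumferential furrows of the cuticle. None of the 6 was called, although all 6 had negative differences, with a median of -0.65 and a range of -1.04 to -0.37. At 0 min the series were nearly level, with a median of -0.16, and at 30 and 120 min the medians were -0.56 and -1.27. The median was negative in every scaling, and with TPM as deposited all 6 were called lower. Without either 120 min library the median was -0.34 and none was called. Without the 0 min library of series 1 or of series 2 it was -0.91, and 5 or 4 of the 6 were called lower. dpy-7 had 195, 136 and 85.8 scaled TPM in series 1, against 200, 158 and 157 in series 2 (-0.37 ± 0.22, adjusted p = 0.281). The series were alike at 0 min and apart at 120 min. dpy-10 had 106, 65.6 and 36.3 in series 1 and 139, 137 and 118 in series 2 (-1.04 ± 0.26, adjusted p = 0.0564). For dpy-10 the series did not overlap. Within series, the median step between 0 and 120 min over the 6 genes was -1.32 in series 1 and -0.19 in series 2. Each such step is a pair of single libraries and has no test.

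The collagens of the dpy-13 group shape the body and the main cuticle layer. dpy-5, dpy-13 and dpy-4 were set the other way: all 3 lay higher in series 1 in every library, and none was called. dpy-13 had 1308, 1512 and 1102 scaled TPM in series 1 and 350, 446 and 1031 in series 2 (1.25 ± 0.40, adjusted p = 0.0894). dpy-5 had 994, 983 and 842 in series 1, against 252, 265 and 753 in series 2 (1.34 ± 0.39, adjusted p = 0.0755). At 0 and 30 min series 1 was the higher by a wide margin, while at 120 min both series stood at nearly the same level. The group's median differences were 1.90, 1.80 and 0.16 at the 3 times. The step between 0 and 120 min had a median of -0.24 in series 1 and 1.56 in series 2. With TPM as deposited 2 of the 3 were called higher. Without the 120 min library of series 1 or of series 2 all 3 were called higher, with a median of 1.84 or 1.83, and without the 0 min library of series 1 dpy-13 group calls numbered 1.

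Other collagens that shape the body, the sqt, rol, bli, lon and further dpy genes, gave a similar course. Of 10 genes 9 passed the filter, 7 of them with positive differences, and the median went 1.15, 0.52 and -0.54 over the 3 times. rol-6 had 477, 362 and 350 scaled TPM in series 1, against 141, 158 and 425 in series 2 (0.89 ± 0.39, adjusted p = 0.163). sqt-1 had 1127, 1081 and 815 in series 1, against 436, 585 and 1041 in series 2 (0.63 ± 0.37, adjusted p = 0.265). In both genes the order of the series turned round by 120 min. The only call was dpy-14, lower in series 1 at a level of under 3 scaled TPM (-1.08 ± 0.17, adjusted p = 0.0299). The median over all times changes sign with quantile normalization, to -0.07, and without either 0 min library, to -0.06. Without the 120 min library of series 1 or of series 2 it was 0.87 or 0.85. It is 0.01 with TPM as deposited, so no direction is given for this list.

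The numbered col genes are the largest collagen family of the worm. Of 158 genes 95 passed the filter on low values. Of these 42 were higher in series 1 and none was lower, with 81 positive differences and a median of 0.96 (quartiles 0.26 and 1.75). The difference was more than 2-fold in 44 genes and more than 4-fold in 17, always higher in series 1. The medians at 0, 30 and 120 min were 0.89, 1.04 and 0.88. In 50 genes series 1 lay wholly above series 2, and in 3 wholly below, beside 14.8% and 16.5% of all genes tested. Calls over all genes tested were 6.47% higher and 2.8% lower. With TPM as deposited 38 were higher and 2 lower. The 63 that did not pass reached at most 1.28 scaled TPM in any library. Of the 42 genes called, 13 overlap another gene.

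The 5 col genes among the 12 largest positive differences were col-156, col-133, col-54, col-157 and col-162. col-156, on chromosome V at 11449204 to 11450339, had 81.8, 91.2 and 142 scaled TPM in series 1 and 8.57, 4.56 and 24.6 in series 2 (3.21 ± 0.29, adjusted p = 0.0118). col-133, on chromosome IV at 14098309 to 14099327, had 52.6, 54.5 and 136 in series 1, against 4.71, 3.64 and 19 in series 2 (3.20 ± 0.19, adjusted p = 0.00853). Both were low in series 2 until 120 min and had not reached the 0 min level of series 1 by then. col-157 had 163, 125 and 169 in series 1, against 11.4, 8.96 and 54.2 in series 2 (3.0 ± 0.41, adjusted p = 0.0234). Over the 42 genes called, the median step between 0 and 120 min was 0.62 in series 1 and 0.91 in series 2, so both series were mostly higher at the later time.

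Cuticlins, insoluble proteins of the cuticle, moved in both directions. Of 35 genes 20 were tested, 4 were higher in series 1 and 1 was lower. cut-2 had 1655, 1748 and 1139 scaled TPM in series 1, against 219, 306 and 712 in series 2 (2.03 ± 0.44, adjusted p = 0.0440), with no overlap. cut-4 gave 2.10 ± 0.22 (adjusted p = 0.0149) and cutl-9 gave -0.99 ± 0.16 (adjusted p = 0.0298). cutl-14 and cutl-23, named after their values were seen, were the other calls, at 0.91 and 0.88. Among 10 enzymes and partners of collagen processing none was called.

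Proteases, protease inhibitors and other genes needed to shed the old cuticle were divided. Of 12, 3 were higher and 2 lower in series 1. Without the 0 min library of series 1, 4 were higher and 4 lower, and without either 120 min library 5 were higher and 2 lower. The astacin metalloprotease nas-36, known for its part in shedding the cuticle, had 6.62, 5.18 and 4.91 scaled TPM in series 1, against 1.33, 0.721 and 1.62 in series 2 (1.58 ± 0.19, adjusted p = 0.0177). nas-7, of the same protease family, gave 2.15 ± 0.26 (adjusted p = 0.0177), and the protease inhibitor bli-5 gave 1.55 ± 0.32 (adjusted p = 0.0426). Series 1 lay wholly above series 2 in these 3 genes. mlt-11, a large secreted protease inhibitor of the molt, went the other way. It had 103, 46.9 and 38.2 in series 1, against 183, 187 and 148 in series 2 (-1.57 ± 0.26, adjusted p = 0.0319). pan-1, the other gene called lower and named after its value was seen, gave -0.85. mlt-10 had 90.8, 63.7 and 69.6 in series 1 and 31.6, 42.0 and 102 in series 2 (0.51 ± 0.36, adjusted p = 0.354), so its order turned round by 120 min as for rol-6.

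Hedgehog-related ligands are secreted proteins of the worm epidermis, and many of them cycle with the molt. Of 59 genes 35 were tested, 8 were higher in series 1 and none was lower. The list's medians were 1.08, 0.40 and 0.04 at 0, 30 and 120 min. Without the 120 min library of series 1 or of series 2, 17 or 16 were higher, and without the 0 min one 12 or 11 were higher and 4 lower. grd-5, a ground-like gene, had 817, 1075 and 1581 scaled TPM in series 1, against 99.4, 122 and 409 in series 2 (2.70 ± 0.29, adjusted p = 0.0150). grd-14 had 128, 124 and 202 in series 1 and 12.8, 12 and 39.2 in series 2 (2.94 ± 0.23, adjusted p = 0.00933). Both genes were higher in every library of series 1. wrt-10, a warthog gene, was on the other side with 196, 130 and 56.0 in series 1, against 266, 218 and 135 in series 2 (-0.81 ± 0.22, adjusted p = 0.0626). The list of patched-related receptors also holds lrp-1, a gene of another family, which was not called. Of its 29 genes 27 were tested. Of these 1 was higher in series 1 (ptr-20, 1.13 ± 0.18, adjusted p = 0.0294) and 4 were lower, among them ptr-25 and ptc-2. Without the 0 min library of series 1 or of series 2, 10 or 9 were lower, and without either 120 min library 4 were higher and 6 lower. After centring within classes of gene span, an alternative chosen after seeing the data, 2 were higher and 1 lower, with a median of 0.01. No direction is therefore given for this list.

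Regulators of the molting oscillator were lower in series 1 where they were called. Of 13 genes 12 were tested, 3 were lower, none was higher, and the median was -0.48. nhr-23, a nuclear receptor that drives molting gene expression, had 28.2, 10.2 and 14 scaled TPM in series 1, against 47.4, 34 and 34.2 in series 2 (-1.20 ± 0.21, adjusted p = 0.0322). myrf-1, a transcription factor released from membranes, had 45.3, 25.5 and 30.0 in series 1 and 89.8, 71.0 and 66.6 in series 2 (-1.18 ± 0.17, adjusted p = 0.0251). Series 1 was wholly below series 2 in both. peb-1, a DNA-binding protein needed for molting of the pharynx, gave -1.49 ± 0.18 (adjusted p = 0.0175). lin-42, the worm relative of period, had 331, 256 and 200 in series 1 and 357, 349 and 431 in series 2 (-0.55 ± 0.25, adjusted p = 0.178). The median of the list held its sign under every scaling, between -0.34 and -0.85. Without the 0 min library of series 1 or of series 2, 7 or 6 were lower, and without either 120 min library 3 were lower and 1 higher.

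Heterochronic genes set which larval stage the cells follow. Whether their differences here mark stage or position within a stage was not tested. Of 11, all tested, 1 was called higher and 1 lower in series 1, but 10 had negative differences and the median was -0.60. In 6 of them series 1 lay wholly below series 2, beside 16.5% of all genes. With TPM as deposited 7 were called lower. After centring within classes of gene span, an alternative chosen after seeing the data, the median was -0.44 and 0 were called. lin-28, an early-stage RNA-binding protein, had 14.6, 17.4 and 13.3 scaled TPM in series 1, against 16.6, 16.8 and 13 in series 2 (-0.03 ± 0.15, adjusted p = 0.893). lin-14, which specifies early stages, had 33.4, 18.4 and 31.6 in series 1, against 36, 47.6 and 49.4 in series 2 (-0.68 ± 0.24, adjusted p = 0.112). lin-46 was higher in series 1 (0.84 ± 0.20, adjusted p = 0.0486) and the steroid receptor daf-12 was lower (-0.84 ± 0.17, adjusted p = 0.0381). Without either 0 min library 7 were lower and none higher. The 8 vulva and anchor cell genes tested gave no call. Of 28 germline genes 10 were tested, and none of these was called, with differences between -0.59 and -0.18.

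**Figure D2:**
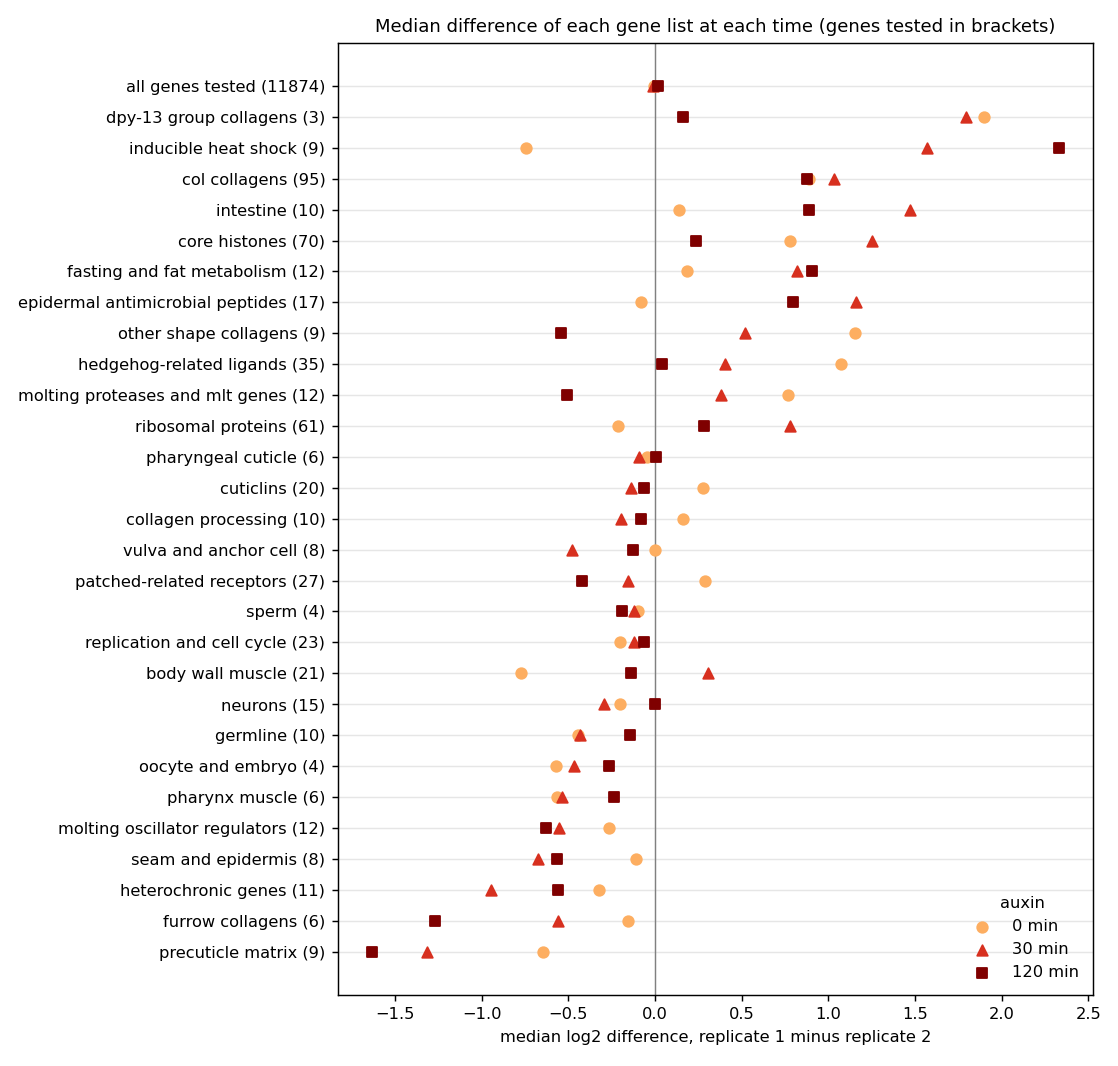
Median log2 difference (replicate 1 minus replicate 2) of each gene list at 0 min (circles), 30 min (triangles) and 120 min (squares), with the number of genes tested in brackets. Precuticle and furrow lists lie furthest to the left at 120 min, the dpy-13 group lies near 1.9 at 0 min and near 0.2 at 120 min, and the median of all genes lies between -0.01 and 0.02.

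Over the 228 tested genes of 10 cuticle and molting lists, the closest pair of libraries across the series was an unmatched one. This measure was added after the values were seen and has no test. The root mean square log2 difference was 1.3 between series 1 and series 2 at 0 min, 1.43 at 30 min and 1.12 at 120 min. Between series 1 at 0 min and series 2 at 120 min it was 0.76, with 39 genes over 2-fold apart, against 90 at matched 0 min. That distance was also below the one between 0 and 120 min within series 1, 0.86, and within series 2, 1.03. Over all 11874 genes the pattern was not seen: series 1 at 0 min was 0.59 from series 2 at 0 min and 0.65 from series 2 at 120 min. The likeness at unmatched times was thus a measure of cuticle and molting genes, in single libraries that also differ in time on auxin.

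**Figure D3:**
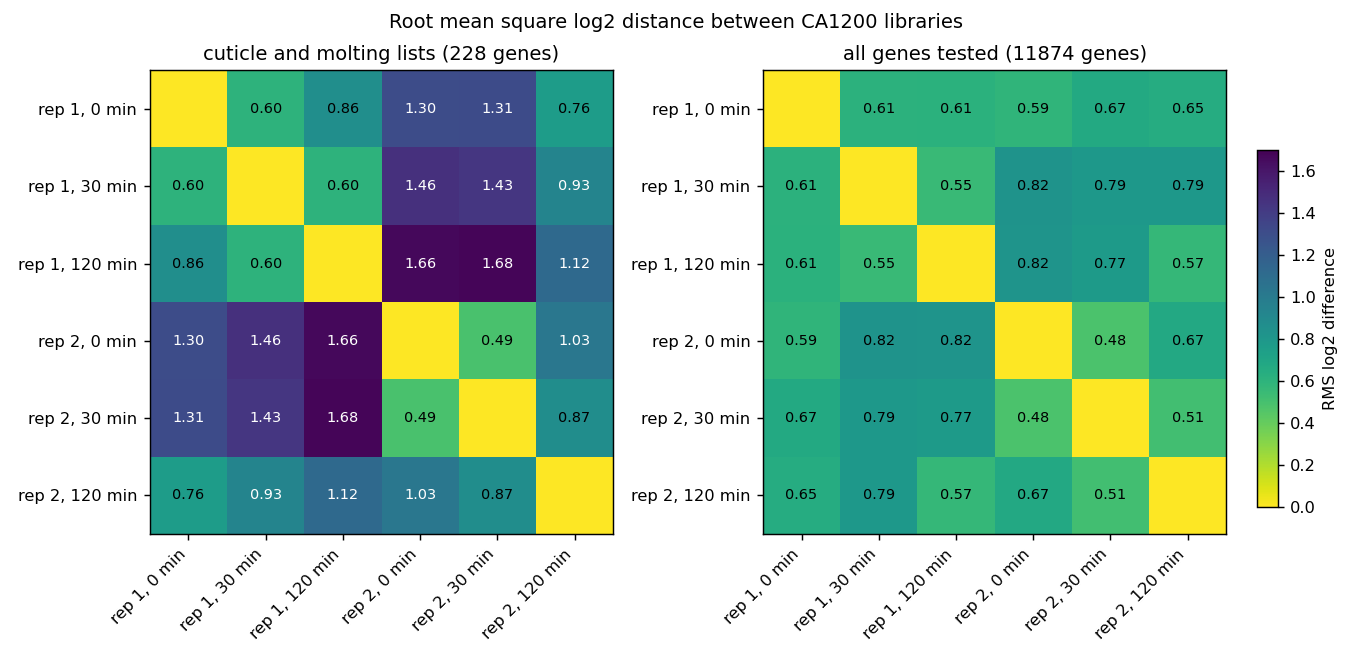
Root mean square log2 difference between each pair of the 6 CA1200 libraries, over 228 genes of the cuticle and molting lists (left) and over 11874 genes (right), with darker cells for larger distances. On the left, series 1 at 0 min and series 2 at 120 min are 0.76 apart, below every matched-time pair.

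Genes outside the epidermal cycle also differed. Of 79 genes in the core histone list 70 were tested. Of these 20 were higher in series 1 and 2 were lower (his-31 and his-32, named after their values were seen). Medians were 0.78, 1.26 and 0.24 at the 3 times. Among all genes tested 63 have a his- name, so the list also holds genes without one. his-5 had 21.5, 37.7 and 25.9 scaled TPM in series 1 and 6.08, 7.21 and 18.9 in series 2 (1.45 ± 0.33, adjusted p = 0.0467). Many histone genes are near-identical copies, 12 of the 70 share their values with another to 3 decimals, and single members are uncertain. Most replication-dependent histone transcripts lack a poly(A) tail, so poly(A) libraries hold only part of them. With TPM as deposited 5 histones were higher and 7 lower, and after centring by gene span, an alternative chosen after seeing the data, 0 were higher and 3 lower. Without the 120 min library of series 1 or of series 2, 40 or 39 were higher. Among 23 replication and cell cycle genes none was called, with a median of -0.14. The replication clamp gene pcn-1 had 33.4, 32 and 26.5 in series 1, against 38.1, 25.2 and 24.6 in series 2.

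Gut genes differed little at 0 min and more at 30 and 120 min. All 10 intestinal genes had positive differences, with medians of 0.14, 1.47 and 0.89, and 1 was called, the gut esterase ges-1 (1.15 ± 0.24, adjusted p = 0.0426). ges-1 had 7.67, 15.5 and 16.4 scaled TPM in series 1 and 4.18, 3.62 and 8.58 in series 2. Without the 0 min library of series 1 or of series 2, 10 or 9 of the 10 were called higher, with a median of 1.24, and without either 120 min library 3 were. The aspartic protease asp-1 had 4123, 10617 and 8169 in series 1, against 3534, 2265 and 3103 in series 2 (1.28 ± 0.48, adjusted p = 0.120). The summed level of the gut list was 5282, 12934 and 9887 in series 1 and 4648, 2954 and 3866 in series 2. Part of the contrast at 30 min comes with the scaling. There the sum over all genes tested was itself 1.34e+06 in series 1 and 8.08e+05 in series 2. With TPM as deposited the gut median was 0.49, with all 10 differences positive and 1 called. In whole worms, fewer cells of a type and less RNA per cell cannot be told apart. Of 12 fasting and fat metabolism genes tested, 3 were higher in series 1. The desaturase fat-7 had 18.1, 15.4 and 4.65 in series 1, against 8.67, 5.62 and 1.76 in series 2 (1.11 ± 0.15, adjusted p = 0.0238), and the superoxide dismutase sod-3 gave 1.69 ± 0.20 (adjusted p = 0.0175). acs-2, named after its value was seen, gave 1.00. Without either 0 min library 8 of this list were higher and 1 lower.

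Body wall muscle held 5 calls among 21 genes, all lower in series 1. They include the giant sarcomere proteins twitchin (unc-22), obscurin (unc-89) and titin (ttn-1). unc-22 had 5.64, 2.63 and 4.79 scaled TPM in series 1, against 10.6, 18.9 and 16.3 in series 2 (-1.61 ± 0.30, adjusted p = 0.0366). unc-89 gave -1.29 ± 0.25 and ttn-1 gave -0.95 ± 0.17. The myosin gene myo-3 (-0.92 ± 0.20) and deb-1 (-0.76, named after its value was seen) were the other calls. The list's median was only -0.16, and its medians were -0.77, 0.31 and -0.14 at 0, 30 and 120 min. Without either 0 min library it was 0.12, and without the 30 min library of series 1 or of series 2 it was -0.46 or -0.47. Of the 21 genes, 8 are among the longest 10% of genes tested, and with those 10% left out none of the other 13 was called. Among 15 neuronal and 6 pharynx muscle genes tested, none was called. Of 8 seam and epidermis genes 1 was called, nhr-74, lower in series 1 (-0.83 ± 0.19, adjusted p = 0.0472). Of 4 oocyte and embryo genes that passed the filter 1 was called, pos-1, lower in series 1 at under 2 scaled TPM (-0.92 ± 0.20, adjusted p = 0.0431). None of the 6 pharyngeal cuticle genes or the 4 sperm genes tested was called. Among 17 epidermal antimicrobial peptide genes tested, 1 was, nlp-25 (1.46 ± 0.25, adjusted p = 0.0333), and without the 0 min library of series 1 or of series 2 it was 8 or 7, all higher.

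Gene length moved with the difference between series over all genes. Median differences declined in order over 10 classes of genomic span, with 0.39 in the shortest class and -0.39 in the longest, which holds 1188 genes of at least 8407 bp. The longest class minus the others gave -0.25, -0.67 and -0.39 at 0, 30 and 120 min. It took in 116 of the 332 genes lower in series 1 (34.9%) and 10 of the 768 higher (1.3%). It includes the laminin gene epi-1 (-1.79 ± 0.28) and the kettin gene ketn-1 (-1.40 ± 0.24), both among the 12 largest negative differences. Precuticle genes had a median span of 4534 bp and col genes one of 1186 bp, against 2539 bp over all genes tested. After centring within classes of span, the precuticle median was -1.27 with 8 lower, and the col median was 0.68 with 26 higher and 2 lower. Between the AM05 series, the longest class minus the others gave 0.08, without such centring. X-linked genes minus autosomal ones gave -0.05 in CA1200. The part of RNA quality or library size selection in this was not tested.

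**Figure D4:**
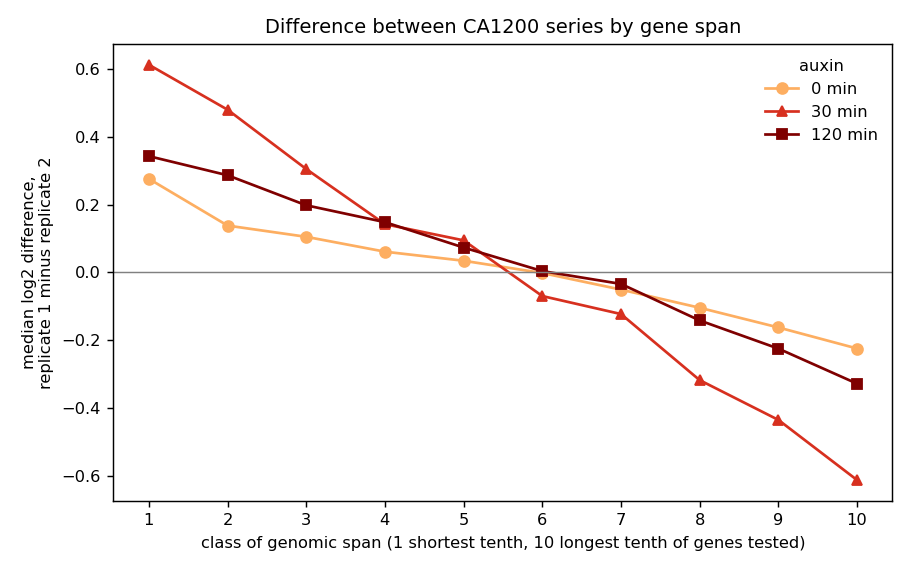
Median log2 difference (replicate 1 minus replicate 2) in 10 equal classes of genomic span, at 0 min (circles), 30 min (triangles) and 120 min (squares). The medians decline with span at each time, most steeply at 30 min, between 0.61 in the shortest class and -0.61 in the longest.

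Inducible heat shock genes were high at 0 min in both series and low at 120 min. hsp-16.1, a small heat shock gene, had 2622, 7052 and 186 scaled TPM in series 1 and 2838, 2351 and 32.2 in series 2 (1.32 ± 0.49, adjusted p = 0.119). None of the 9 was called, and the list's medians of -0.74, 1.57 and 2.33 changed sign after 0 min. Ribosomal protein genes gave no call among 61, with a median of 0.27 that becomes -0.11 with TPM as deposited, -0.09 with quantile normalization and -0.12 after centring by span.

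Several of the largest differences were in genes that the files and the reference leave without a described role. Among called genes with a mean of at least 10 scaled TPM, the largest was R12E2.15 on chromosome I at 4148833 to 4149431. It had 1314, 1460 and 1261 scaled TPM in series 1 and 66.1, 105 and 372 in series 2 (3.28 ± 0.48, adjusted p = 0.0256). Its neighbour R12E2.14, at 4149982 to 4150639, had 630, 741 and 660 in series 1, against 45.8, 57.0 and 242 in series 2 (2.96 ± 0.46, adjusted p = 0.0287). C02E7.7, H10E21.4, C29F3.3 and dbd-20 were likewise over 4-fold higher in series 1. Among the largest negative differences were F59C6.16 at -2.24 ± 0.40, K07B1.8 at -2.14 ± 0.27, C09F9.2 at -1.70 ± 0.19 and C01G10.5 at -1.44 ± 0.15.

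The replicate numbers of AM05 were set against each other in the same way, to see whether a replicate number stood for the same difference in both strains. In AM05, 1628 of 12449 genes were higher in replicate 1 (13.1%) and 1893 were lower (15.2%). The difference between strains, CA1200 minus AM05, was tested over both strains in 1 fit of 12 libraries. It was positive in 2255 of 12766 genes (17.7%) and negative in 1813 (14.2%), 4068 in all (31.9%). With TPM as deposited the split was 1326 and 2963. The labels do not say whether a replicate number stands for the same day in both strains. The size and sign of each strain difference therefore depend on how the series of each strain were numbered. Its p-values measure how steady the contrast was over the times. Each strain gives a single pair of series, so an effect of strain itself was not tested. Across 11650 genes tested in both strains the correlation of the differences was -0.08, given as a description, since genes share libraries. Of the CA1200 genes higher in replicate 1 that were also tested in AM05, 15.4% were higher and 19.7% were lower there, which is 7.35% and 9.36% of the AM05 calls of those directions. Of those lower in CA1200 replicate 1, 27.4% were higher and 14.5% were lower in AM05, which is 5.59% and 2.93% of the AM05 calls.

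The lists with the widest contrast were the shape collagens. Furrow collagens had a median difference of -0.65 in CA1200 and -4.33 in AM05, where all 6 were lower, and all 6 passed the test of the strain difference. The dpy-13 group had 1.29 in CA1200 and -2.87 in AM05, and all 3 passed. The series difference of dpy-7 was apart between strains by 4.03 ± 0.28 (adjusted p = 0.000685) and that of dpy-13 by 4.10 ± 0.76 (adjusted p = 0.00762). Core histones had medians of 0.75 in CA1200 and -1.71 in AM05, and 53 of 70 had a positive strain difference that passed. Precuticle genes were lower in replicate 1 of both strains, with medians of -1.20 in CA1200 and -2.82 in AM05 and 8 of 9 called in each. The strain difference had a median of 2.18, and 6 of the 9 had a positive one that passed, none a negative one. fbn-1 and let-653 did not pass the test of the strain difference (-1.03 ± 0.46, adjusted p = 0.124, and -0.22 ± 0.38, adjusted p = 0.673), while noah-1 did (2.39 ± 0.41, adjusted p = 0.00549). nhr-23 was lower in both, -1.20 in CA1200 and -1.60 in AM05. Of the col genes called higher in CA1200, 5 were higher and 5 lower in AM05.

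**Figure D5:**
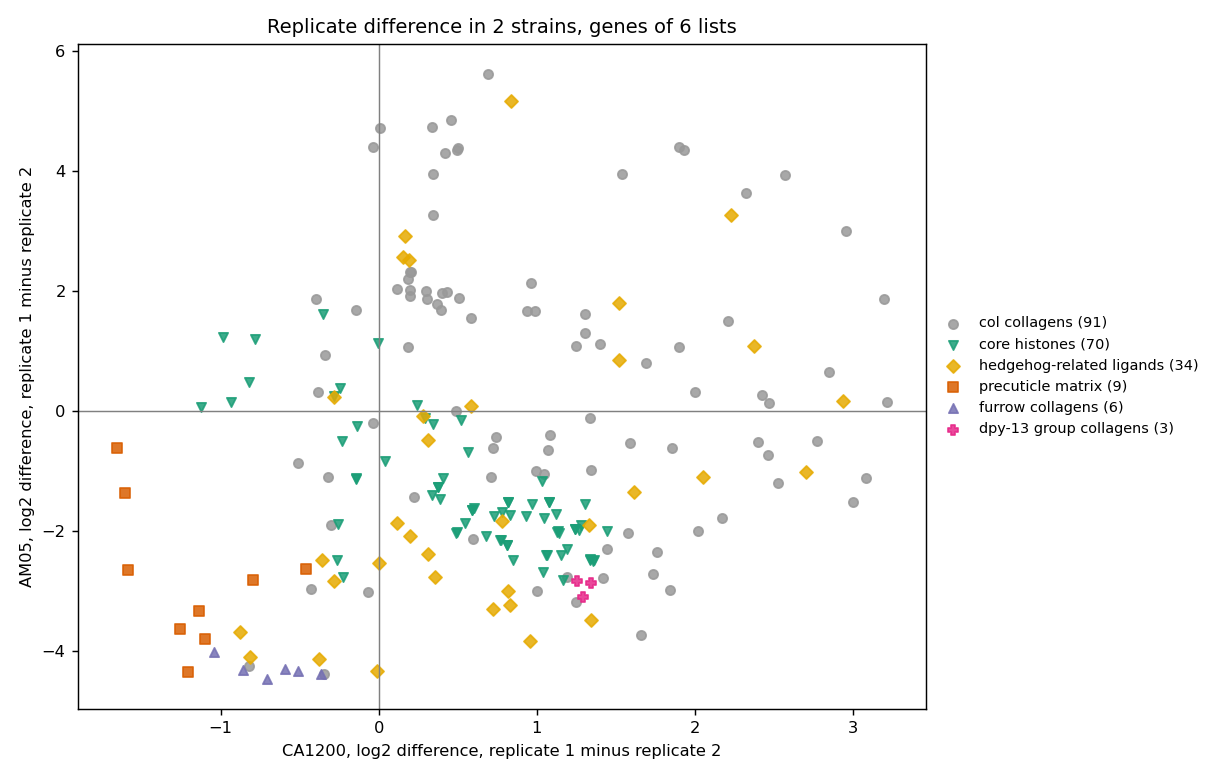
Log2 difference between replicate 1 and replicate 2 in CA1200 (horizontal axis) against the same in AM05 (vertical axis), 1 point per gene of 6 lists tested in both strains. Furrow and precuticle genes lie at the lower left, the dpy-13 group and most histones lie at the lower right, and col genes spread over both signs in AM05.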

How the data were processed

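The deposited per-library tables give TPM and FPKM per gene, computed by the authors with Cufflinks, per the file headers. Tools named in the submitters' processing notes are Cufflinks 2.2.1, HISAT2 2.2.1, HTSeq 0.13.5, CASAVA 1.8 and DESeq2 1.30.0. The authors' comparison tables were not used here, nor were HTSeq counts. No build is named in the sources used here, and 1.42% of matched genes start at the reference's base, so coordinates are the files' own. FPKM served only to estimate depth, from 7895 genes with 1 transcript. Intervals from counts are not given, since TPM holds none. Of 20390 genes, 19880 were matched to symbols. The 12 mitochondrial genes are listed at 0 in all libraries.

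TPM was scaled by median ratios over 11416 genes and taken as log2(scaled TPM + 1), which understates fold changes of low genes. Tested genes reached 1 TPM in 2 or more of the libraries fitted. limma 3.58.1 (R 4.3.3) fitted replicate and time to 6 libraries with 2 residual degrees of freedom, and both strains to 12 libraries with 4. All p-values are two-sided. The fit was tested on simulated data with 200 changed genes. Named genes are key members of each list, the 12 largest called differences in each direction with a mean of at least 10 scaled TPM and 1 sign at all times, and up to 3 further members per list. The 30 gene lists and their members were chosen with earlier results of these data known. 2 list names were not matched. Alternatives were other scalings, pseudocounts, filters, fits and libraries left out.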

Additional observations from a re-analysis of the deposited data

Results flagged for a closer look

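The difference between replicate 1 and replicate 2 was not the same in CA1200 and AM05. limma's test of the strain difference passed in 4068 genes at an adjusted p under 0.05, and in 80 of the 148 genes named by rule. Values below are the difference in CA1200 minus the difference in AM05 (log2). No explanation was tested. The labels do not tie the replicate numbers of the strains to each other, so each value depends on how the series were numbered. The calls show contrasts that were steady over the times between a single pair of series per strain. Whether they reflect the strain was not tested.

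Among furrow collagens dpy-2 gave 3.76, dpy-3 3.73, dpy-7 4.03, dpy-8 3.46, dpy-9 3.83 and dpy-10 2.99. In the dpy-13 group dpy-4 gave 4.4, dpy-5 4.21 and dpy-13 4.10. Among other shape collagens sqt-1 gave 4.37, rol-6 4.44, lon-3 4.01 and bli-2 2.29, while dpy-14 gave -1.51. col-54 gave 4.21 and col-157 gave 4.52. The collagen-processing genes dpy-18 and tsp-15 gave 1.73 and 0.97. The cuticlin cut-2 had the highest value of the 80, 4.73, with cut-4 at 2.03 and cutl-9 at -1.25. The pharyngeal cuticle genes abu-12 and abu-13 gave 3.36 and 3.53.

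Matrix and molting genes gave 2.39 in noah-1, 3.15 in lpr-3, 2.21 in let-4, 3.02 in nas-36, 2.94 in nas-37, 2.98 in bli-5, 3.14 in cpz-1, 3.67 in mlt-10 and 2.11 in mlt-11. dpy-6 went the other way at -2.88. Hedgehog-related genes gave 2.83 in qua-1, 3.31 in wrt-10, 2.78 in grd-14 and 3.73 in grd-5. Among patched-related receptors ptc-3 gave 1.36, ptr-18 2.76, ptr-25 0.90 and ptc-2 -1.20. Among regulators grh-1 gave 1.66, lin-42 2.73 and elt-3 -0.72. The heterochronic genes lin-14, lin-28, hbl-1 and daf-12 gave -1.36, -0.80, -1.70 and -0.95, and lin-46 gave 1.18.

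The histone genes his-5, his-19 and his-53 gave 3.46, 3.85 and 3.86. Cell cycle genes gave -1.11 in cyd-1, 0.64 in rnr-2 and -0.96 in mcm-7. The germline genes pgl-1, glh-1, glp-1 and daz-1 gave 2.10, 2.29, 1.5 and 2.18, and lip-1 of the vulva list gave -1.04. Metabolic and gut genes gave 2.23 in fat-7, 2.13 in acdh-1, 2.59 in hacd-1, 1.45 in sod-3 and 1.74 in ges-1. Muscle genes gave -2.0 in unc-22, -1.81 in unc-89, -1.56 in ttn-1, -1.54 in myo-3 and -1.98 in ketn-1, and the laminin gene epi-1 gave -1.83. Neuronal genes gave -0.99 in egl-3, -1.03 in unc-13 and -0.78 in unc-25. Genes without a described role gave 3.78 in R12E2.15, 3.03 in C02E7.7, 3.52 in H10E21.4, -3.96 in F59C6.16, -1.69 in K07B1.8 and -5.33 in C01G10.5.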

How the results depend on the processing

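No paired analysis was possible because blocking on the replicate number would remove the difference compared. The fit instead matched the series by time. The 1100 calls became 1469 with TPM as deposited, 770 with quantile normalization, 0 with no filter on low values (4366 at an unadjusted p under 0.05), 99 with no time block (86 higher, 13 lower), 2825 with all 27 libraries in the fit, 652 after centring within classes of gene span and 846 with the longest 10% left out, the last 2 chosen after seeing the data. Leaving out 1 library, whose partner at that time then gives no difference, gave 0 to 2961 calls between series. For the strain difference, with 4068 calls, it gave 2021 to 4032. The strain calls stood within 1.5 times of 4068 under the other alternatives. Without the 30 min pair the precuticle median was -1.14 and the dpy-13 group median 1.04 or 1.03. No named gene that was called changed sign under an alternative. Of 2310 values of named genes under alternatives, 252 lost and 172 gained a call. The causes were not tested. With 2 residual degrees of freedom, genes of differences that change over time, such as the dpy-13 group, have wide errors.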

Other observations

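Gene families outside the lists were counted by symbol prefix, chosen after their values were seen and without a test. Beside 6.47% higher and 2.8% lower over all genes tested, 22 of 69 C-type lectin genes (clec) were higher in series 1 and 1 was lower, with a median difference of 0.76. Of 19 clc genes 7 were higher, of 14 dbd genes 8, of 16 pals genes 6, and of 68 F-box genes of the fbxa group 12, with none lower in these 4 families. Detoxification enzymes leaned the same way, with 12 of 50 UDP-glucuronosyltransferase genes (ugt), 7 of 35 glutathione transferase genes (gst) and 7 of 44 cytochrome P450 genes (cyp) higher. Lower in series 1 were 10 of 89 unc genes and 5 of 25 egl genes, names given for movement and egg-laying defects, with none higher. So were 5 of 25 dpy and 6 of 32 let genes, again with none higher, some of them members of the lists. Of 178 nuclear hormone receptor genes (nhr) 1 was higher and 4 were lower. These counts take no account of gene span. Over all genes, 116 of 1188 in the longest span class were lower and 10 higher. In the shortest class 161 of 1188 were higher and 20 lower. The part of span in the family counts was not tested.

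Among AM05 libraries, the one nearest to any CA1200 library over the 228 cuticle and molting genes was replicate 1 at 0 min, which was 0.88 (root mean square log2 difference) from CA1200 replicate 1 at 120 min. It was 1.35 from CA1200 replicate 1 and 1.75 from CA1200 replicate 2 at its own time of 0 min. Over all 11874 genes this order was not seen. There the same AM05 library was 0.82 from CA1200 replicate 1 at 120 min. From CA1200 replicates 1 and 2 at 0 min it was 0.77 and 0.65.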
